A study of Mus musculus with 7 samples.

Results

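Efferocytosis, the engulfment of dying cells, was followed through 9 genes in macrophages sorted from regenerating mouse sciatic nerve. The genes were picked by symbol for their known roles, with earlier results of these data known: the TAM receptors Mertk, Axl and Tyro3, the TAM ligands Gas6 and Pros1, the bridging molecule Mfge8, the receptor Lrp1, and the engulfment pair Elmo1 and Dock1. They are 9 of the 23361 genes quantified in each library. RNASeq was performed on BALB/cJ mice, an inbred strain with no engineered allele, whose left sciatic nerve was cut and repaired within an inert conduit. Macrophages were sorted from the tissue bridging the conduit as F4/80+ CD14+ CD11b+ CD16/32+ cells, after exclusion of cells bearing Ly6G, Siglec F, CD3e, Ter119, CD31, Thy1.2 (taken as the fibroblast marker) and other lineage markers. Libraries were made 5 days after repair (n = 3), 14 days (n = 2) and 28 days (n = 2), with no library of uninjured nerve or of blood monocytes among them, and neither sex nor age of these mice is given in the sources used here. The libraries of a time point are independent biological replicates according to the design text, and whether 1 mouse or a pool gave each library is not given.

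After a nerve is cut, the stump beyond the cut degenerates, and macrophages clear myelin, axon fragments and dead cells, neutrophils among them. A dying cell exposes phosphatidylserine on its surface. Gas6 and protein S, the product of Pros1, bind this lipid and link the corpse to the receptor tyrosine kinases Tyro3, Axl and MerTK, while Mfge8 links it to the integrins αvβ3 and αvβ5. Lrp1 binds a wide range of cargo, including calreticulin-coated cells and myelin debris. Elmo1 and Dock1 form an exchange factor that activates Rac, the GTPase that drives the membrane around the corpse. MerTK is a receptor typical of resting clearance by tissue macrophages, whereas Axl is induced in inflamed settings.

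The libraries held 18027190 to 35247116 fragments assigned to genes. Between replicates the fragments differed well beyond counting error (chi-square over its degrees of freedom 15.5 to 62), so no library was a second deposit of another. The labelled cell type was checked against its markers. All 8 macrophage markers were present in each library, and their summed FPKM (fragments per length of transcript and library size) ranged over 5672 to 6192 (day 5), 3887 to 4656 (day 14) and 3726 to 4185 (day 28). Transcripts known from other cell types were also present. The summed FPKM of 6 neutrophil markers was 239 to 275 at day 5, 495 and 514 at day 14, and 252 and 103 at day 28, nearly all of it from S100a8 and S100a9, while the granule genes Elane, Mpo, Ltf and Camp were at 0 to 0.56 FPKM. The 6 fibroblast markers summed to 222 FPKM in day 14 replicate 1, against 27.8 to 80.2 FPKM in the other libraries. Platelet and megakaryocyte markers summed to 1481 to 2121 FPKM at day 5, 522 and 410 at day 14, and 343 and 265 at day 28, nearly all from Pf4. Endothelial markers summed to 32.4 to 44.8, 38.5 and 25.0, and 21.5 and 21.3 FPKM. Erythroid markers gave 28.2 to 43.5, 49.3 and 7.50, and 0.0452 and 9.83 FPKM. Eosinophil markers gave 1.68 to 2.18, 5.69 and 1.72, and 3.21 and 3.33 FPKM. The part of such cells in the levels below was not tested. In sorted bulk cells, fewer cells carrying a transcript and less of it per cell cannot be told apart.

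Of the 9 genes, Mfge8, Axl and Pros1 rose and none fell in the tests at adjusted p under 0.05 (edgeR quasi-likelihood F test). Mfge8 went from one of the least abundant of the set to the second most abundant, with a mean of 6.49 ± 0.990 FPKM at day 5 (SD, n = 3) and 114 ± 25.4 FPKM at day 28 (n = 2), a ratio of 17.5. Axl reached its higher level by day 14, with a ratio of mean FPKM to day 5 of 2.53 at day 14 and 2.62 at day 28. Pros1 was higher by a ratio of 1.52 at day 28. Mertk, the partner of Axl, had nearly the same mean FPKM at each time point. Where days are said below not to overlap, this describes the 2 or 3 libraries of each day and is no test. The share of all genes without overlap was not computed.

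**Figure D1:**
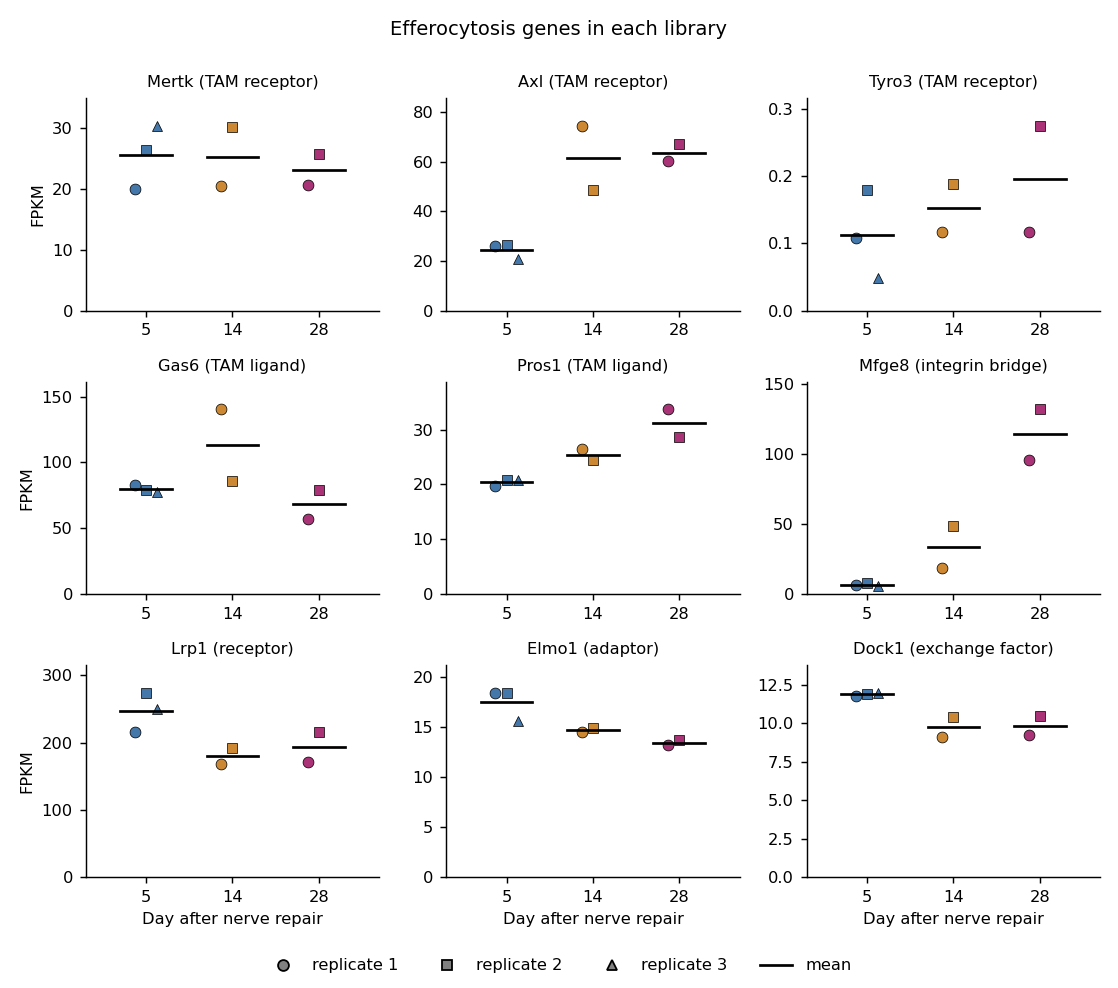
FPKM of the 9 genes (vertical axes, linear and from 0, a separate scale per gene) in each library by day after nerve repair (horizontal axes); symbols mark the replicate number and bars the mean of a day. Mfge8 lies between 5.67 and 7.59 FPKM at day 5 and at 96.0 and 132 FPKM at day 28, Axl is higher in all libraries of days 14 and 28 than at day 5, and the day ranges of Mertk overlap.

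The promoters of the 3 genes that rose are shown because these genes moved in one direction. The windows were taken from RefSeq on GRCm38.p6, 250 bases before to 50 after the annotated start, 5′ to 3′ on the strand of the gene. Capitals mark matches to the GC box GGGCGG or its reverse complement CCGCCC and to the STAT-type motif TTCNNNGAA. Axl is on the minus strand at chr7:25788684-25788983, Mfge8 on the minus strand at chr7:79149011-79149310 and Pros1 on the plus strand at chr16:62854057-62854356.
Axl: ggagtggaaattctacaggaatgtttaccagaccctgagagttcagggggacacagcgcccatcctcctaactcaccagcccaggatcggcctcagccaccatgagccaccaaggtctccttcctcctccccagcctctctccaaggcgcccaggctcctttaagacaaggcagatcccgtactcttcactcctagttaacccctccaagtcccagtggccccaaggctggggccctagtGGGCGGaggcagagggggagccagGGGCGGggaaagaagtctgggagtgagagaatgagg
Mfge8: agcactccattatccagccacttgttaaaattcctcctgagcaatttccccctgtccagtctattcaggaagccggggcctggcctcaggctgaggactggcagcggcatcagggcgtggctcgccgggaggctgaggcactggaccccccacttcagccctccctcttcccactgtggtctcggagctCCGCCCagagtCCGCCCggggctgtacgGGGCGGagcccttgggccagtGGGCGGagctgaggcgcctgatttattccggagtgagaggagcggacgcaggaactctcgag
Pros1: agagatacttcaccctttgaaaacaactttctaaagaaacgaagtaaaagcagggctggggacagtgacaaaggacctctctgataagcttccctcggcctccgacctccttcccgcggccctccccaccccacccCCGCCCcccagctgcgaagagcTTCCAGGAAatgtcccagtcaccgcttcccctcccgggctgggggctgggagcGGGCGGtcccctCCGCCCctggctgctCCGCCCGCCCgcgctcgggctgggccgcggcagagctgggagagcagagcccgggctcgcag
Axl held 2 GC boxes, at 10 bases before the start and just after it, Mfge8 held 4 and Pros1 held 5, of which the last 2 overlap. All 9 genes had a GC box within their windows, as had 35.7% of the 32851 RefSeq promoters, and the 3 windows shown were richer in GC (60.3%, 64.3% and 66.7%) than all promoters together (53.8%). The STAT-type motif was present in 3 of the 9 genes, Pros1, Lrp1 and Elmo1, and in 8.30% of all promoters. The nuclear receptor half-site AGGTCA, the AP-1 motif TGANTCA and the E-box CACGTG were in no window of the 9 genes, against 16.3%, 7.81% and 7.15% of all promoters, and the TATA box TATAAA was in that of Elmo1 alone, against 13.6% of all promoters. Both strands were searched. No motif set the 3 rising genes apart from the other 6, and a match of letters is not a binding site.

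Among the TAM receptors, Axl changed and Mertk did not pass the test. Axl (ENSMUSG00000002602, GRCm38 chr7:25757273-25788705, minus strand) codes for a tyrosine kinase receptor that binds Gas6 and is cleaved from the surface after activation. Its FPKM was, in the order of the replicates, 25.9, 26.4 and 20.7 (day 5), 74.4 and 48.5 (day 14), and 60.2 and 67.0 (day 28). All 4 later libraries were above all 3 early ones, and days 14 and 28 overlapped. Axl rose from day 5 to day 14 by 1.34 ± 0.18 on the log2 scale (SE; adjusted p = 0.0113) and was higher at day 28 than at day 5 by 1.40 ± 0.18 (adjusted p = 0.00232). Between days 14 and 28 its log2 fold change was 0.05, with a 95% interval of -0.40 to 0.50 (adjusted p = 0.938). Day 14 replicate 1, with the highest Axl, was also the library with the most fibroblast transcripts. With that library and day 5 replicate 1 left out, each the highest in fibroblast markers of its day, day 14 rested on 1 library. That library, day 14 replicate 2, had a higher fibroblast sum (80.2 FPKM) than day 5 replicate 1 (72.1 FPKM). Any fit with a lone library assumes that it varies like the other groups. On that assumption the log2 fold change of Axl was 1.06 to day 14, and to day 28 it was 1.44. The call at day 14 was lost without day 5 replicate 3 (adjusted p = 0.0512), with the replicate number as a block (adjusted p = 0.0802) and in limma on log2(FPKM + 1) without a filter (adjusted p = 0.0820). Over all genes 52, 6 and 0 were called in these fits, against 614 in the fit reported.

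Mertk (ENSMUSG00000014361, chr2:128698956-128802894, plus strand) codes for the TAM receptor that binds both Gas6 and protein S. Its FPKM was 20.0, 26.4 and 30.3 at day 5, 20.5 and 30.1 at day 14, and 20.6 and 25.7 at day 28, in the order of the replicates. The 3 days covered nearly the same range. From day 5 to day 28 the log2 fold change was -0.13, with a 95% interval of -0.60 to 0.34 (adjusted p = 0.708), so a change of Mertk as large as that of Axl lay outside the interval. Tyro3 (ENSMUSG00000027298, chr2:119797733-119818104, plus strand), the TAM receptor best known from neurons and Schwann cells, was at 0.05 to 0.27 FPKM with 4 to 20 fragments per library. It passed the expression filter at this depth, but its log2 fold change between days 5 and 28 of 0.77 had an interval of -0.87 to 2.42, so no difference was detectable.

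The ratio between the receptors moved with Axl. The ratio of Axl to Mertk FPKM was 1.29, 1.0 and 0.681 in day 5 replicates 1, 2 and 3. It was 3.63 and 1.61 at day 14, and 2.93 and 2.60 at day 28. Each later library had more Axl than Mertk, by a ratio above those of all day 5 libraries. Axl made up 40.5% to 56.3% of the summed FPKM of the 3 receptors at day 5, 61.6% and 78.3% at day 14, and 74.5% and 72.0% at day 28.

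Of the bridging molecules, Mfge8 had the largest change of the set. Mfge8 (ENSMUSG00000030605, chr7:79133768-79149060, minus strand) codes for a secreted glycoprotein that binds phosphatidylserine through discoidin-type domains and αv integrins through an RGD motif. Its FPKM was, in the same order, 6.22, 7.59 and 5.67 (day 5), 18.7 and 48.7 (day 14), and 96.0 and 132 (day 28). No 2 days overlapped, and the day 14 libraries were the farthest apart. The fragments behind these values were 280, 300 and 236 at day 5, 628 and 2078 at day 14, and 7050 and 4802 at day 28. Mfge8 rose from day 5 to day 14 by a log2 fold change of 2.39 ± 0.35 (adjusted p = 0.0134) and was higher at day 28 than at day 5 by 4.15 ± 0.36 (adjusted p = 0.000541). The further step from day 14 to day 28 was 1.76 ± 0.37 and was not called (adjusted p = 0.108). Its size depended on the day 14 library, at 2.65 without replicate 2, where it was called (adjusted p = 0.000194), and 1.22 without replicate 1 (adjusted p = 0.0559). The day 14 call was lost without day 5 replicate 1 (adjusted p = 0.0592), without day 5 replicate 3 (adjusted p = 0.0652), with the replicate block (adjusted p = 0.0610) and in limma without a filter (adjusted p = 0.0976). Over all genes 63, 52, 6 and 0 were called in these fits, against 614 in the fit reported. Of the day 14 libraries, the one with more fibroblast transcripts had less Mfge8. With day 14 replicate 1 and day 5 replicate 1 left out, and so again 1 library at day 14, Mfge8 was higher by 2.89 at day 14 and the value at day 28 was 4.10.

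The summed FPKM of 5 of 5 dendritic cell markers was also higher at day 28 than at day 5. It was 8.02 to 12.8 at day 5, 24.7 and 10.8 in day 14 replicates 1 and 2, and 19.7 and 30.1 at day 28. Zbtb46 was at 0.39 to 0.91 FPKM at day 5, below 1.62 and 0.92 FPKM at day 14 and 0.93 and 0.95 FPKM at day 28. Cd209a went from 2.80 to 3.24 FPKM at day 5 to 5.24 and 4.90 FPKM at day 28, Xcr1 from 0.32 to 0.48 FPKM to 0.74 and 0.62 FPKM, and Ccr7 from 3.73 to 8.27 FPKM to 12.6 and 23.0 FPKM. At day 14, replicates 1 and 2 were at 6.89 and 2.40 FPKM for Cd209a, 0.62 and 0.15 for Xcr1, and 15.1 and 7.16 for Ccr7. In replicate 2 none of these was above the day 5 range. Flt3 overlapped between days, at 0.15 to 0.62 FPKM. The part of such cells in the levels of Mfge8 and Axl was not tested.

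Pros1 (ENSMUSG00000022912, chr16:62854307-62929346, plus strand), the gene of protein S, an anticoagulant cofactor and ligand of MerTK and Tyro3, gave 19.6, 20.9 and 20.9 FPKM at day 5, 26.4 and 24.4 FPKM at day 14 and 33.7 and 28.6 FPKM at day 28. No 2 days overlapped. Pros1 was higher at day 28 than at day 5 by a log2 fold change of 0.62 ± 0.11 (adjusted p = 0.00803), while the steps of 0.32 from day 5 to day 14 (adjusted p = 0.125) and 0.30 from day 14 to day 28 (adjusted p = 0.371) were not called. Without day 28 replicate 1 its difference between days 28 and 5 was 0.49 (adjusted p = 0.0684).

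Gas6 (ENSMUSG00000031451, chr8:13465374-13494490, minus strand), the ligand of all 3 TAM receptors, showed no called difference, and 1 library decided its shape. Its FPKM was 82.7, 78.8 and 77.6 at day 5, 141 and 85.7 at day 14 and 57.1 and 79.3 at day 28. Day 14 replicate 1 stood above the other 6 libraries, and it was the library with fibroblast markers at 222 FPKM. The log2 fold change was 0.51 from day 5 to day 14 (adjusted p = 0.166) and -0.73 from day 14 to day 28 (adjusted p = 0.239). Without day 14 replicate 2, leaving replicate 1 alone for that day, these became 0.82 (adjusted p = 0.0325) and -1.03 (adjusted p = 0.00720), and without day 14 replicate 1 they were 0.12 (adjusted p = 0.703) and -0.33 (adjusted p = 0.577). All 6 fibroblast markers were at their highest in that library, with Col1a1 at 82.4 FPKM against 10.4 to 29.9 FPKM elsewhere, and the part of fibroblast RNA in Gas6 was not tested. The exons of Gas6 overlap those of Tmem255b on the opposite strand, to which at most 5 fragments per library were assigned.

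**Figure D2:**
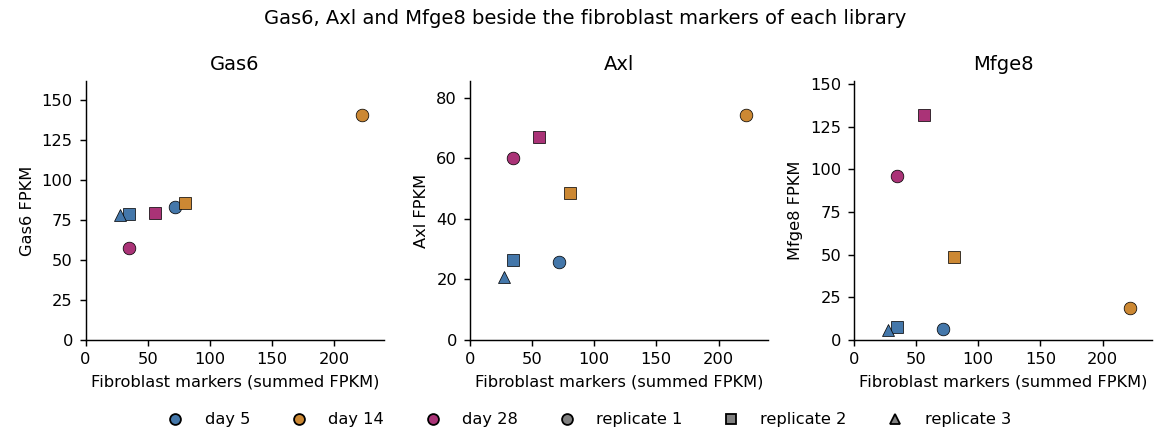
FPKM of Gas6, Axl and Mfge8 (vertical axes, from 0) against the summed FPKM of 6 fibroblast markers (horizontal axes) in each of the 7 libraries; colors mark the day and symbols the replicate. Day 14 replicate 1 lies alone at 222 FPKM of fibroblast markers with the highest Gas6 (141 FPKM) and Axl (74.4 FPKM), while its Mfge8 (18.7 FPKM) is below the other day 14 library and both day 28 libraries.

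The make-up of the bridging molecules turned over. Mfge8 made up 5.73%, 7.08% and 5.44% of the summed FPKM of Gas6, Pros1 and Mfge8 in day 5 replicates 1, 2 and 3. It made up 10.1% and 30.7% at day 14, and 51.4% and 55.0% at day 28. Gas6 made up 73.5% to 76.2% at day 5, 75.7% and 54.0% at day 14, and 30.6% and 33.1% at day 28. At day 28 each library held more Mfge8 than Gas6, with a ratio of 1.68 and 1.66, whereas at day 5 the ratio was 0.0730 to 0.0963.

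**Figure D3:**
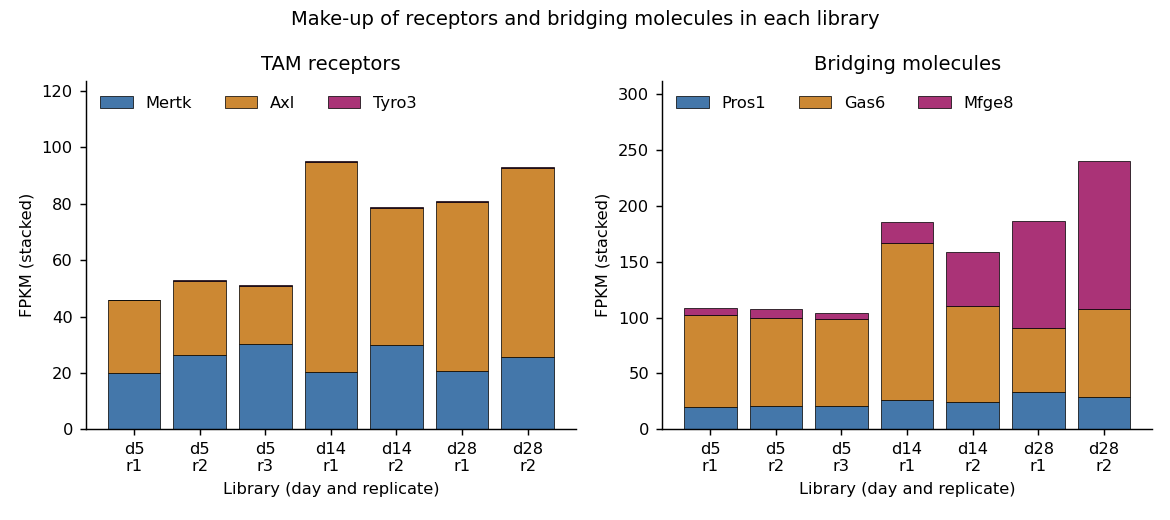
Stacked FPKM (vertical axes, from 0) of the TAM receptors Mertk, Axl and Tyro3 (left) and of the bridging molecules Pros1, Gas6 and Mfge8 (right) in each library (horizontal axes, day and replicate). The Mertk segment lies between 20.0 and 30.3 FPKM while the Axl segment grows, and Mfge8 goes from 5.67 to 7.59 FPKM at day 5 to the largest segment at day 28; Tyro3 is too low to be seen.

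Lrp1, Elmo1 and Dock1 showed no called difference. Lrp1 (ENSMUSG00000040249, chr10:127538161-127621148, minus strand), an endocytic receptor of the LDL receptor family, was the most abundant of the set on the FPKM scale at each time point. Its FPKM was 215, 274 and 251 at day 5, 168 and 192 at day 14, and 172 and 216 at day 28. Both day 14 libraries were below all day 5 libraries, and day 28 overlapped day 5 by 1 library. The log2 fold change was -0.45 from day 5 to day 14 (95% interval -0.80 to -0.09, adjusted p = 0.125) and -0.34 from day 5 to day 28 (-0.69 to 0.02, adjusted p = 0.177). DESeq2, another count test, called the first (adjusted p = 0.0420).

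Elmo1 (ENSMUSG00000041112, chr13:20090596-20608353, plus strand), the adaptor that couples phosphatidylserine receptors to Dock proteins, gave 18.5, 18.4 and 15.6 FPKM at day 5, 14.5 and 14.9 at day 14 and 13.2 and 13.7 at day 28. The days did not overlap, with day 5 the highest, but the steps from day 5 to day 14 (adjusted p = 0.230) and from day 14 to day 28 (adjusted p = 0.736) were not called. Its log2 fold change from day 5 to day 28 was -0.36 (95% interval -0.62 to -0.11) and narrowly missed the threshold (adjusted p = 0.0604). DESeq2 called it (adjusted p = 0.0407), as did the fit on the libraries of these 2 days alone (adjusted p = 0.0431). An antisense gene, Gm32036, overlaps Elmo1 and was not analysed here. Since no use of strand is stated, reads of the pair cannot be told apart.

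Dock1 (ENSMUSG00000058325, chr7:134670654-135173639, plus strand), the exchange factor that acts on Rac with Elmo1, was at 11.8, 11.9 and 12.0 FPKM at day 5, 9.09 and 10.4 at day 14 and 9.20 and 10.4 at day 28. The 4 later libraries were below the 3 early ones, with a log2 fold change of -0.28 to day 14 (adjusted p = 0.174), and of -0.26 to day 28 (adjusted p = 0.142). The paralog Dock2, the main Dock protein of blood cells, was more abundant per length than Dock1, with a ratio of FPKM of 5.61 ± 0.330 (day 5), 6.80 ± 0.724 (day 14) and 7.65 ± 0.449 (day 28). Elmo2, the paralog of Elmo1, was at 1.89 ± 0.453, 1.78 ± 0.390 and 2.08 ± 0.0363 times the FPKM of the latter.

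The order of levels on the FPKM scale changed mainly through Mfge8 and Axl. At day 5 the mean levels ran from Lrp1 (247) over Gas6 (79.7), Mertk (25.6), Axl (24.3), Pros1 (20.5), Elmo1 (17.5), Dock1 (11.9) and Mfge8 (6.49) to Tyro3 (0.112). Mertk, Axl and Pros1 overlapped there, and the other neighbours did not. At day 14 the order was Lrp1 (180), Gas6 (113), Axl (61.5), Mfge8 (33.7), Pros1 (25.4), Mertk (25.3), Elmo1 (14.7), Dock1 (9.76) and Tyro3 (0.152), with overlaps of Axl with Mfge8, Mfge8 with Pros1, and Pros1 with Mertk. At day 28 it was Lrp1 (194), Mfge8 (114), Gas6 (68.2), Axl (63.6), Pros1 (31.2), Mertk (23.1), Elmo1 (13.5), Dock1 (9.82) and Tyro3 (0.195), and only Gas6 and Axl overlapped. Mfge8 stood above 47.2% of the genes tested at day 5 and 94.6% at day 28, Axl above 75.1% and 90.5%, and Mertk above 75.9% and 75.5%.

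Each comparison asked which genes differ between 2 time points of the response. From day 5 to day 14, 2 of 9 genes were called (22.2%), both higher, against 4.78% of the 12858 genes tested, 2.84% called higher and 1.94% lower. Without day 5 replicate 1 the count was 1 and without day 5 replicate 3 it was 0. Over all genes 63 and 52 were called there, against 614 in the fit reported. From day 14 to day 28, 0 of 9 were called by edgeR, against 0.0622% of all genes, 0.0311% called higher and 0.0311% lower. Gas6, Pros1 and Mfge8 were at an unadjusted p under 0.05 there (3 of 9), DESeq2 called 1, Mfge8, and edgeR without day 14 replicate 2 called 2, Gas6 and Mfge8. From day 5 to day 28, 3 of 9 were called (33.3%), all higher, against 15.2% of all genes, 7.74% called higher and 7.51% lower. The median log2 fold change of the 9 genes was 0.32, 0.05 and -0.13 in these comparisons, against 0.03, 0.01 and 0.03 over all genes tested. With 9 genes these counts describe the genes listed and no wider group. The comparisons share libraries, so that the day 14 and day 28 differences from day 5 are not separate observations.

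**Figure D4:**
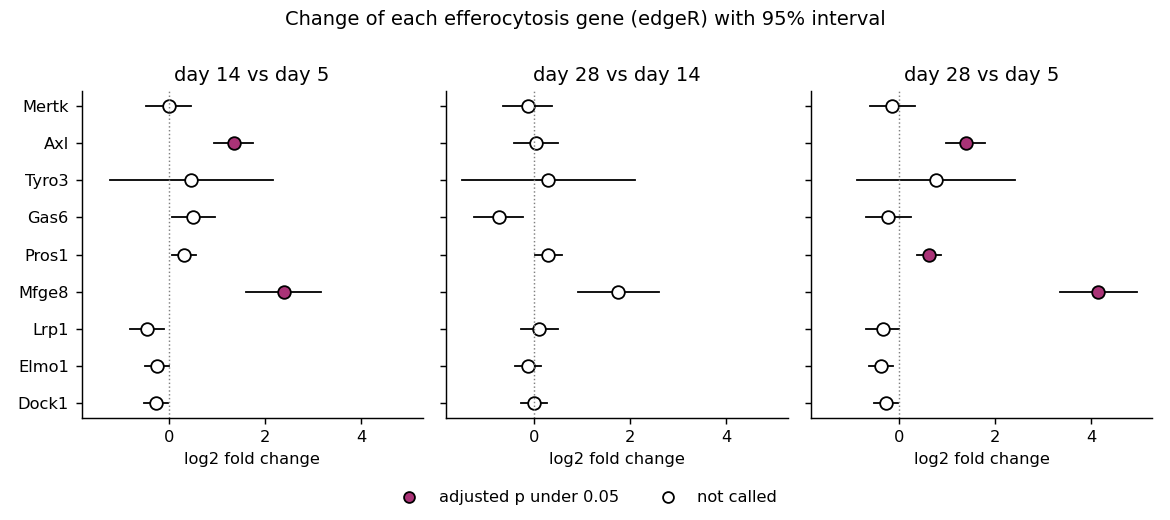
Log2 fold change of each of the 9 genes (horizontal axes; points, with lines for the 95% interval) in the 3 comparisons of time points, from the edgeR fit; filled points have an adjusted p under 0.05. Mfge8 and Axl are filled at 2.39 and 1.34 in day 14 vs day 5, no gene is filled in day 28 vs day 14, and Mfge8, Axl and Pros1 are filled at 4.15, 1.40 and 0.62 in day 28 vs day 5.

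Genes with profiles like those of the 3 that rose were found by the root mean square difference of log2(FPKM + 1) over the 7 libraries, each profile centred on its mean. For Axl the nearest of 7612 genes were Ciita, the transactivator of MHC class II genes, and Ctsf, a lysosomal cysteine protease, at 0.147 and 0.150 where Axl itself varied by 0.682. Ciita was at 2.14 ± 0.333, 6.99 ± 0.801 and 8.30 ± 0.756 FPKM at days 5, 14 and 28. For Mfge8, which varied by 1.69, they were Wfs1, an endoplasmic reticulum protein, and Penk, the precursor of enkephalins, at 0.251 and 0.301. Wfs1 was at 1.31 ± 0.292, 8.76 ± 4.56 and 27.4 ± 5.02 FPKM, and Penk at 1.11 ± 0.386, 9.54 ± 6.91 and 25.9 ± 2.26 FPKM. For Pros1, which varied by 0.252, they were Ccdc84 and Zscan26, at 0.0622 and 0.0656. These distances are descriptions over 7 libraries.

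A further 94 genes of apoptotic cell uptake, in 8 lists by role, were read in the same fit, and 89 of them were tested. From day 5 to day 14, 6 were called (6.74%, near the 4.78% of all genes), 1 higher and 5 lower, from day 14 to day 28 none by edgeR (27 at an unadjusted p under 0.05, and 8 called by DESeq2), and from day 5 to day 28, 27 (30.3%, against 15.2% of all genes), 10 higher and 17 lower. Their median log2 fold change from day 5 to day 28 was -0.11, against 0.03 over all genes. The count of 27 moved with the libraries. Without day 5 replicates 1, 2 or 3 it was 13, 12 and 16. Over all genes 820, 916 and 967 were called there, against 1960 in the fit reported. The count of 27 also fell without either day 28 library, which left 1 library for that day. The largest rise was that of Cx3cr1, the fractalkine receptor by which phagocytes sense dying cells. It was at 4.47, 7.15 and 3.56 FPKM at day 5, 12.6 and 25.3 at day 14, and 44.1 and 36.3 at day 28, with no overlap between days. Cx3cr1 rose by 1.92 to day 14 (adjusted p = 0.0189) and 3.01 to day 28 (adjusted p = 0.00107), in 13 and 17 of 17 alternatives. The other 3 find-me receptors were not called.

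Of 16 receptors for apoptotic cells tested, 5 were called between days 5 and 28 (31.2%, against 15.2% of all genes). Cd300lf, a lipid-binding receptor with inhibitory motifs, fell by 1.75, from 36.4 to 53.2 FPKM at day 5 to 13.8 and 13.7 FPKM at day 28 (adjusted p = 0.00183), and the scavenger receptor Msr1 fell by 0.62 (adjusted p = 0.0192). Havcr2, also called TIM-3, rose by 0.54 (adjusted p = 0.0476), Cd300lb by 0.47 (adjusted p = 0.0213) and Trem2, a lipid receptor of macrophages and microglia, by 0.38 (adjusted p = 0.0429). Msr1 was also lower at day 14, by a log2 fold change of -0.62 (adjusted p = 0.0409). Of the 17 alternatives, 17 kept the call of Cd300lf, 13 that of Msr1 at day 28 and 8 at day 14, 12 that of Cd300lb and 5 that of Havcr2, with adjusted p up to 0.280 for the last. For Trem2 the alternatives are not given here. The integrin partners of Mfge8 were not called from day 5 to day 28. Itgb5 was at 52.8 to 59.3, 64.5 and 75.3, and 63.5 and 89.2 FPKM at the 3 time points (log2 fold change 0.44, adjusted p = 0.0860), Itgav at 19.8 to 38.4 FPKM over all libraries (-0.16, adjusted p = 0.646), and Itgb3 at 0.21 to 0.77 FPKM (0.93, adjusted p = 0.129).

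Among 11 other bridging molecules and opsonins tested, 4 were called between days 5 and 28 (36.4%, against 15.2%). Thrombospondin 1 (Thbs1), which links corpses to CD36, fell by 1.73 (adjusted p = 0.0331), from 337, 234 and 290 FPKM at day 5 to 74.3 and 97.0 at day 28, with 198 and 52.4 at day 14. Complement C3 fell by 1.21 (adjusted p = 0.00721). Annexin A1 (Anxa1) rose by 0.96 (adjusted p = 0.00747) and galectin 3 (Lgals3), which binds MerTK, by 0.47 (adjusted p = 0.0366). The calls of C3 and Anxa1 were kept in 16 of 17 alternatives each, that of Lgals3 in 10 and that of Thbs1 in 8. The C1q genes, opsonins of dying cells, were not called, with C1qa at 1146 to 1439.9 FPKM (day 5), 1894 and 1269.8 FPKM (day 14), and 849.7 and 1152 FPKM (day 28).

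Of 18 engulfment signalling genes tested, 6 were called between days 5 and 28 (33.3%, against 15.2%). Bcar1, the scaffold that recruits Crk, fell by 2.04 from a low level of 1.20 to 1.44 FPKM at day 5 (adjusted p = 0.00722). RhoG (Rhog), which acts upstream of Elmo1, fell by 0.68 (adjusted p = 0.00832), and the Rac exchange factors Vav3 and Vav1 fell by 0.67 (adjusted p = 0.00757) and 0.66 (adjusted p = 0.0239). The adaptor Crk fell by 0.57 (adjusted p = 0.0127), whereas the kinase Src rose by 1.10 (adjusted p = 0.0214). Vav3 and Crk were lower already at day 14, by a log2 fold change of -0.65 (adjusted p = 0.0226) and -0.54 (adjusted p = 0.0366). Vav3 was called at day 28 in 17 of 17 alternatives, Rhog in 16 and Src in 12, and at day 14 Vav3 in 11 and Crk in 9. For Vav1 and Crk at day 28 the alternatives are not given here. Rac1, the target of the Elmo1 and Dock1 pair, was at 151 to 187 FPKM in the 7 libraries and was not called.

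Of 9 genes that process or follow TAM receptors, 4 were called between days 5 and 28 (44.4%, against 15.2%). Socs3, a feedback inhibitor of cytokine signalling, fell by 1.62 (adjusted p = 0.0291), Rhbdf2, which activates the sheddase Adam17, by 0.94 (adjusted p = 0.0309), and Ifnar1, the interferon receptor chain through which TAM receptors signal, by 0.48 (adjusted p = 0.0492), with a lower level at day 14 as well (-0.58, adjusted p = 0.0492). The call of Ifnar1 was kept in 8 of 17 alternatives at day 28 and in 4 at day 14 (adjusted p up to 0.199), that of Socs3 in 11 and that of Rhbdf2 in 10. Ggcx, the γ-carboxylase that gives Gas6 and protein S their lipid-binding form, rose by 0.74 (adjusted p = 0.0191), from 2.1 to 2.2 FPKM at day 5 over 3.20 and 3.02 FPKM at day 14 to 3.75 and 3.39 FPKM at day 28, and was called in 11 of 17 alternatives. Adam17, which sheds MerTK and Axl, was at 86.9 to 107, 76.4 and 69.2, and 78.5 and 73.6 FPKM and was not called (-0.35, adjusted p = 0.0960).

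Of 9 genes for engulfed lipid, 4 were called between days 5 and 28 (44.4%, against 15.2%). The cholesterol exporters Abca1 and Abcg1 fell by 0.91 (adjusted p = 0.00464) and 0.74 (adjusted p = 0.00464), and the sterol sensor Nr1h3, also known as LXRα, by 0.85 (adjusted p = 0.00731), while Abca7 rose by 0.43 (adjusted p = 0.0440). Abca1 was also lower at day 14 (-0.64, adjusted p = 0.0389). Abca1 and Abcg1 at day 28 were called in 17 of 17 alternatives and Nr1h3 in 16, but Abca7, and Abca1 at day 14, in 7 each and not with the replicate block. Of 5 genes that restrain uptake, 2 were called between days 5 and 28 (40%, against 15.2%). The don't-eat-me signal Cd47 fell by 0.77 (adjusted p = 0.00963) and Cd24a rose by 0.44 (adjusted p = 0.0332), and Sirpa, the macrophage receptor of CD47, was not called. Of 17 phagosome genes, Lamp1 alone was called at day 28 (5.88%, against 15.2%), with a log2 fold change of -0.47. Of 17 alternatives, 15 kept the call of Cd47 and 10 each those of Cd24a and Lamp1.

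**Figure D5:**
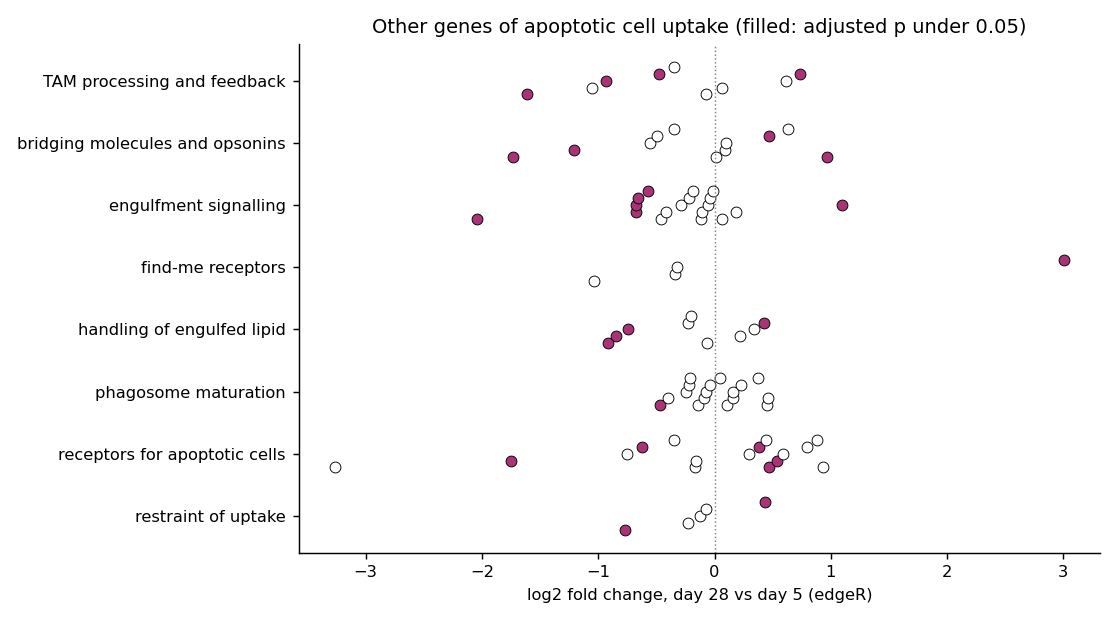
Log2 fold change from day 5 to day 28 (horizontal axis) of 89 genes of apoptotic cell uptake in 8 lists by role (vertical axis; points of a list are spread for visibility); filled points have an adjusted p under 0.05. Cx3cr1 stands alone at 3.01, filled points of the lipid and engulfment lists lie mostly below 0, and 16 of 17 phagosome genes are not filled.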

How the data were processed

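The authors isolated polyA+ RNA, prepared NEBNext Ultra libraries, sequenced single reads, removed adaptors (cutadapt 1.8), aligned to mm10 (TopHat2 2.0.13) and quantified genes with Cuffdiff 2.2.1. The deposited unscaled fragments are expected counts per gene, which need not be whole. The deposited scaled signal is these fragments times 1 factor per library, and the authors computed FPKM for transcript length and library size. Use of strand and sharing of multiply mapped reads are not given in the sources used here, which leaves paralogs and genes that overlap uncertain.

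Expected counts were rounded and fitted over the 7 libraries by time point (edgeR 4.0.16, R 4.3.3: TMM, filterByExpr, quasi-likelihood F test), with Benjamini-Hochberg adjustment over the 12858 genes tested in each comparison, and a gene was called at an adjusted p under 0.05. Library totals were 18027190 to 35247116 fragments, and a floor of 3 fragments, which covers counting error only, marked detection. The alternatives were DESeq2 1.42.0, RLE and Cuffdiff scaling, no filter, limma 3.58.1 on log2(FPKM + 1) and log2(FPKM + 0.1) for genes of mean FPKM of at least 1 and without that minimum, fits on the 2 days compared, a replicate block and leaving out each library. The 9 genes and all lists were chosen with earlier results of these data known. All 9 genes are named, and of each other list the genes called, up to the 4 with the largest log2 fold change per comparison, plus partners of the 9 genes; Trem2, Vav1 and Crk at day 28 fell outside this limit and were added after their values were seen. Gene positions are from GENCODE on GRCm38, and plots used matplotlib 3.10.9 in Python 3.11.15.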

Additional observations from a re-analysis of the deposited data

How the results depend on the processing

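Under 17 alternatives, 1 of them chosen after seeing the data, Axl and Mfge8 were called higher at day 28 than at day 5 in 17 and Pros1 in 16. The 9 genes gave 0 calls from day 5 to day 14 in limma without a filter, where 0 of all 17326 genes were called. Without day 5 replicates 1, 2 or 3 they gave 1, 2 and 0, against 63, 106 and 52 over all genes. From day 14 to day 28 they gave 1 call by DESeq2 and 2 with no expression filter, against 332 and 390 over all genes. With 1 day 5 library left out they gave 0 there, as did all genes. From day 5 to day 28 they gave 3 calls with any 1 day 5 library left out, against 820, 916 and 967 over all genes. The counts moved in some fits without a day 14 or day 28 library, which left 1 library for that day. Of the other uptake genes (89 tested in the fit reported, 81 to 94 in the alternatives), the calls from day 5 to day 14 were 11 by DESeq2, 12 with no expression filter, 0 in limma without a filter, 2 in the fit on those days alone, 15 without the libraries highest in fibroblast markers (chosen after seeing the data), and 0 to 21 when single libraries were left out, the highest without day 14 replicate 1. Over all genes DESeq2 called 1366 from day 5 to day 14 and the fit with no expression filter 1429. Limma without a filter called 0 and the fit on those days alone 315, against 614 in the fit reported. With single libraries left out, the count over all genes was also highest without day 14 replicate 1. From day 14 to day 28 the uptake calls were 8 by DESeq2 and 10 with no expression filter. Over all genes 332 and 390 were called there, against 8 in the fit reported. From day 5 to day 28 they were 14 in limma without a filter and 6 to 39 with single libraries left out. Over all genes that limma fit called 1008 from day 5 to day 28, against 1960 in the fit reported. The 6 and the 39 came from fits that left 1 library for a day. The counts over all genes were lowest and highest in such fits as well, so these shifts were not particular to the uptake genes. The cause of these shifts was not tested.

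The libraries share replicate numbers but not mice, so the number was not taken as a pairing. Deviations of same-numbered libraries correlated at 0.175 and 0.0449 between days 5 and 14, at -0.0538 between days 14 and 28, and at 0.0842 and 0.0249 between days 5 and 28, over 7613 genes, so the number was not taken as a pairing. With the replicate block, the calls of the 9 genes were 0, 0 and 3 in the 3 comparisons, and those of the other uptake genes 0, 0 and 12. Over all genes the block gave 6 calls from day 5 to day 14 against 614 without it, and 735 from day 5 to day 28 against 1960.

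Signs changed only in differences that were not called. The log2 fold change of Mertk from day 5 to day 14 was 0.0039 in the fit on those days and 0.12 with the block. It was 0.10 without replicate 1 of days 5 and 14, and -0.31 to 0.25 with single libraries left out. From day 14 to day 28 Mertk ranged from -0.38 to 0.18, and from day 5 to day 28 it was 0.0161 with the block and ranged from -0.31 to 0.0197. With single libraries left out, the differences from day 14 to day 28 ranged from -0.22 to 0.38 for Axl and -0.40 to 0.83 for Tyro3. They ranged from -0.0683 to 0.26 for Lrp1 and -0.0873 to 0.12 for Dock1. Without replicate 1 of days 5 and 14, that of Dock1 was -0.0905. The difference of Gas6 from day 5 to day 28 ranged from -0.47 to 0.0041 with single libraries left out. Tyro3, with at most 20 fragments in a library, is limited by depth.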
